A study of Mus musculus with 7 samples.

Results

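The cadherins and protocadherins described here are the 57 genes whose symbol in the array annotation begins with Cdh and a digit or with Pcdh, without Cdh5, out of 22180 genes with a probe set that carries 1 symbol. RNA was measured in endothelial cells of fetal mouse lung at E18.5, shortly before birth, with 3 arrays labelled wild-type against 4 labelled Sash1-knockout. The knockout is labelled Sash1-/-, and both genotypes came from the same litters on a C57BL/6 background and were told apart by PCR. The cells of both groups were viable, carried CD31 and lacked CD45 and CD326 in the sort, which are the surface marks of endothelium, leukocytes and epithelium. Which part of Sash1 is missing is not labelled, nor whether cells of several embryos were pooled or each array is a separate embryo. The spread behind the p-values is that between these arrays and may be technical.

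Cadherins are calcium-dependent adhesion proteins whose extracellular repeats bind partners on neighbouring cells. Classical cadherins tie these contacts to actin through catenins, and in endothelium this work is done mainly by VE-cadherin, the product of Cdh5. Protocadherins share the extracellular repeats but lack the catenin tail. The clustered alpha, beta and gamma protocadherins lie side by side on mouse chromosome 18 and are best known for giving neurons individual identities, while the non-clustered ones are scattered over the genome.

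Each value is a deposited log2 signal for 1 probe set, so a step of 1 is a doubling of signal. Probe sets differ in how strongly they respond to RNA, so the order of signals between genes does not give the order of RNA amounts. Cdh5, which served as a check, averaged 11.95 ± 0.02 (SD, n = 3) for the wild-type label and 11.90 ± 0.06 (SD, n = 4) for the knockout label. All 10 pan-endothelial markers lay above the background level defined next, with Pecam1, the CD31 gene, at 11.03 to 11.21 over the 7 arrays. Sash1 lay near the values of the other label on 2 arrays. It measured 9.02, 8.73 and 8.33 on wild-type 1, 2 and 3, and 8.29, 8.21, 8.68 and 8.13 on knockout 1, 2, 3 and 4. The array labelled wild-type 3 thus lay near the knockout-labelled values, though above knockout 1, 2 and 4. The array labelled knockout 3 lay near wild-type 2 and above wild-type 3. Groups are named by their labels throughout. Array medians over all 41345 probe sets ran from 3.86 to 4.03, and pairs of arrays correlated at 0.964 to 0.98.

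Which members were expressed was judged against sensory receptor genes, since the file holds no detection calls. The 1394 olfactory and vomeronasal receptor genes, which lung endothelium is not known to use, had a 95th percentile of 3.99, and this served as the background level. Of the 57 members, 29 had a mean over all 7 arrays above it (50.9%), beside 57.5% of all 22180 genes. On the 7 single arrays, 24 to 30 members lay above the same percentile of that array, and 26 members lay above 3.99 on every array. The count depended on the level chosen, with 39 members above the 90th percentile and 9 above the 99th. Just inside the level lay Cdh15 (4.09) and Pcdhb16 (4.00), and just outside it Pcdh15 (3.87) and Cdh22 (3.81).

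**Figure D1:**
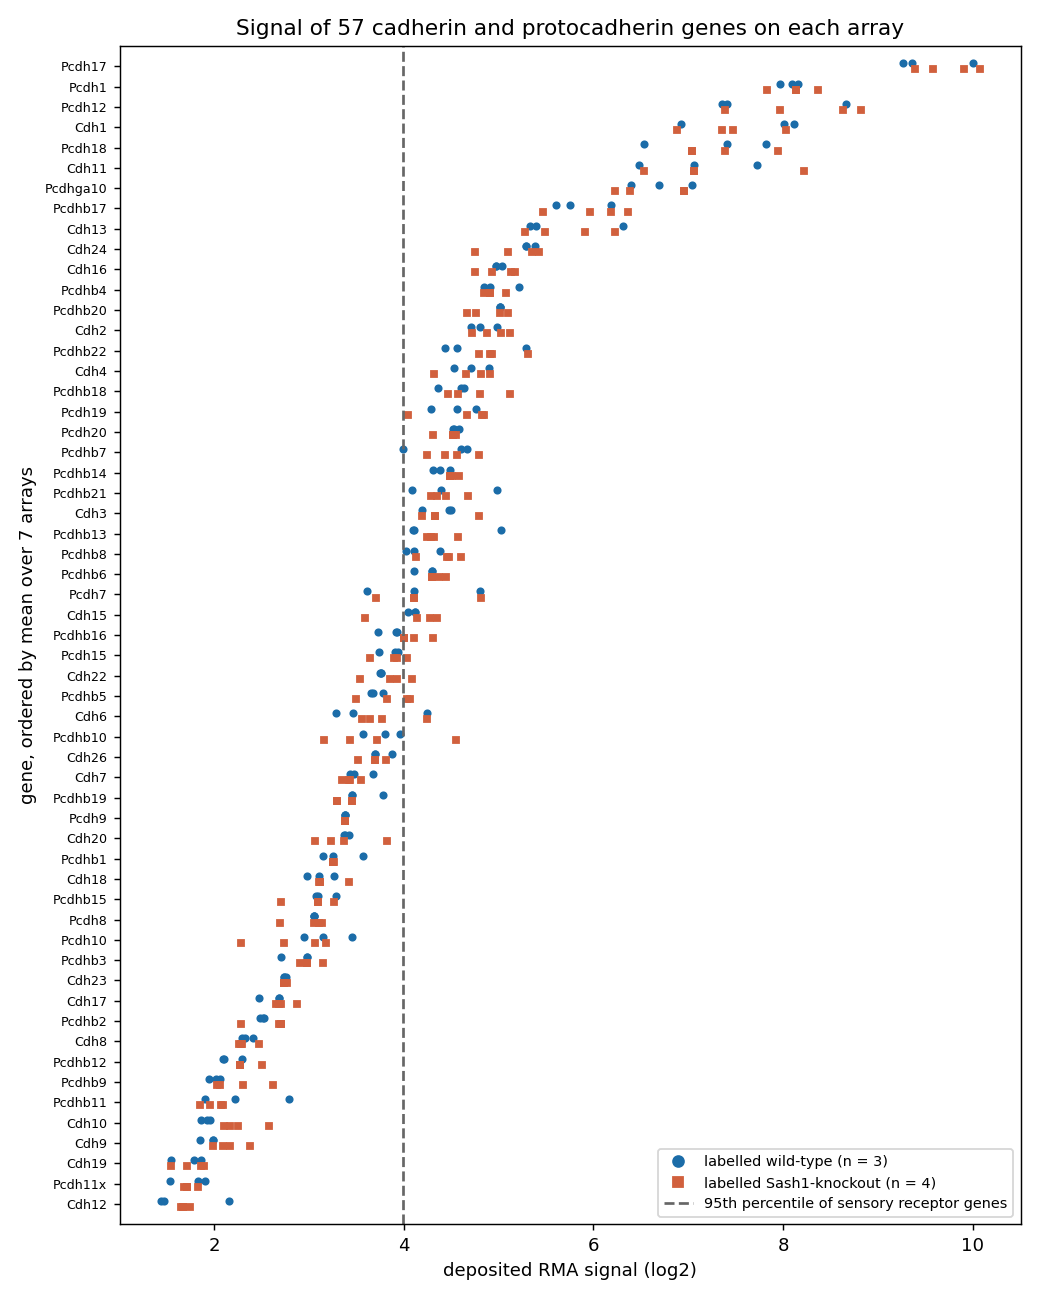
Deposited log2 signal of the 57 members on each array, ordered by the mean over 7 arrays, with circles for arrays labelled wild-type and squares for arrays labelled Sash1-knockout. The dashed line at 3.99 is the background level, which 29 members exceed, and the symbols of both labels lie over each other for nearly every gene.

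Among the 12 non-clustered protocadherins 7 were above background (Pcdh17, Pcdh1, Pcdh12, Pcdh18, Pcdh19, Pcdh20 and Pcdh7). The remaining ones were Pcdh15, a part of the tip link of sensory hair cells, and Pcdh9, Pcdh8, Pcdh10 and Pcdh11x, which are mainly known from brain. Among the 22 cadherins 9 were above background (Cdh1, Cdh11, Cdh13, Cdh24, Cdh16, Cdh2, Cdh4, Cdh3 and Cdh15). Below it were the type II cadherin genes Cdh6, Cdh7, Cdh8, Cdh9, Cdh10, Cdh12, Cdh18, Cdh19, Cdh20 and Cdh22, many of them neural, and Cdh17, Cdh23 and Cdh26. Of the 22 beta protocadherins 12 were above background, and so was the single gamma gene with a probe set of its own, Pcdhga10. No alpha gene had a probe set with 1 symbol.

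Upstream sequence was available for 22 of the 57 members in the RefSeq promoter table of GRCm38.p6, as 25 windows of 250 bases before a transcript start. Cdh1, Cdh11, Cdh13, Pcdh1 and Pcdh12 are among the members without a window. Some windows lie before transcript starts far inside the gene, as for Pcdh15, Cdh12 and Cdh18. The windows of Pcdh17, Pcdh10 and Cdh26 are shown because they hold many or no CG dinucleotides, with and without a signal above background, and each ends where the gene begins. CG dinucleotides, the places where DNA can be methylated, are in capitals.
Pcdh17, chr14:84443313-84443562, plus strand: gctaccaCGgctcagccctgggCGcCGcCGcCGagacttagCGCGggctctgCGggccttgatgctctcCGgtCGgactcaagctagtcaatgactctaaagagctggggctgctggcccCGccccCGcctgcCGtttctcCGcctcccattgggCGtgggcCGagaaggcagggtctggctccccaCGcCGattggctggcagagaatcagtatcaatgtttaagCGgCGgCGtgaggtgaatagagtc
Pcdh10, chr3:45378148-45378397, plus strand: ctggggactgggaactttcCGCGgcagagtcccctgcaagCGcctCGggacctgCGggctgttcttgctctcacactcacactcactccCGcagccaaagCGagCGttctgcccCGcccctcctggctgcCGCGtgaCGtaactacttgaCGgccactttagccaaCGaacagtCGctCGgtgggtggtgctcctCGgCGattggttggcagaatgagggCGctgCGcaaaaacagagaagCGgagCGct
Cdh26, chr2:178430265-178430514, plus strand: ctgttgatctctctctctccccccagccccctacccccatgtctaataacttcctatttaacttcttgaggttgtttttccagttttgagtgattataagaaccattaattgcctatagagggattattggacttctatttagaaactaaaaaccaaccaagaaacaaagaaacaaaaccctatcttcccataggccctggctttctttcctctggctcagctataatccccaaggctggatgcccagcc

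The Pcdh17 window held 21 CG dinucleotides and the Pcdh10 window 22, while the Cdh26 window held 0. Pcdh17 had a mean signal of 9.65 and Pcdh10, its relative in the delta-2 group of protocadherins, 2.97, so a window rich in CG went with a signal on either side of the background level. The 7 windows of members above background had a median of 16 CG dinucleotides. The 18 windows of 15 other members had a median of 9, and all 32851 windows of the table a median of 6. Cdh7 and Pcdh9 have more than 1 window each, and those of Pcdh9 overlap almost fully, so windows do not count as separate genes. The ETS core CGGAAG, searched on both strands, was in 0 of the 25 member windows and in 13.6% of all windows. The E2-box CAGGTG, which Snail and Zeb repressors read, was in 3 member windows, of Cdh7 and Pcdh15 only, and in 17.2% of all. The letters AACAAT, bound by Sox factors, were in 0 member windows (9.42% of all), the GATA motif AGATAA in 1 (9.99%) and the TATA box TATAAA in 2 (12.4%). These matches are descriptions of the letters only.

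The comparison asks whether RNA of these adhesion genes differs between arrays labelled wild-type and Sash1-knockout. Sash1 itself was not called, with a difference of -0.37 (95% confidence interval -0.83 to 0.10, adjusted p = 0.971 in limma). Its groups overlapped, and its signal was above background on all 7 arrays. No member passed the test. Of the 57 members 43 passed the filter that left out the dimmest 25% of genes, 0 of the 43 passed limma at an adjusted p of 0.05, and 0 had an unadjusted p under 0.05. Over all 16637 genes tested, 0% were called and 3.34% had an unadjusted p under 0.05. The adjusted p of the members was 0.971 to 1 in limma. Members had a median difference (knockout-labelled minus wild-type-labelled) of 0.012, beside 0.015 over all genes, and single members differed by -0.24 (Cdh1) to 0.39 (Pcdh12). The precision was limited, with a median 95% confidence interval of 0.382 to either side of a member's difference and 0.345 over all genes.

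Positive differences were found for 24 of the 43 members (55.8%), beside 53.9% of all genes. This split moved with the scaling, to 31 members after median centring of the arrays and 29 after quantile normalization, while the median over all genes went from 0.015 to 0.073 and 0.046. The groups did not overlap for 1 of 43 members (2.33%), beside 2.45% of all genes. That member was Pcdhb16, with higher values under the knockout label, as in 1.77% of all genes, while 0 members and 0.679% of all genes had lower values without overlap. The count of 1 became 5 without wild-type 2, 3 without wild-type 3, 3 without knockout 2 and 2 without knockout 1 or knockout 4. Groups of fewer arrays separate more easily for any gene, and the share over all genes was not counted in these fits. Without that share, the counts with an array left out cannot be read as a result about the members. The count of 1 on all arrays lay near the share over all genes. The other 14 members were too dim to be tested, with means of 1.69 to 2.97, among them Cdh10, whose knockout-labelled values were all above its wild-type-labelled ones at 2.58 or less. In a fit without the filter Cdh10 differed by 0.36 (unadjusted p = 0.0239, adjusted p = 0.958 in limma).

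**Figure D2:**
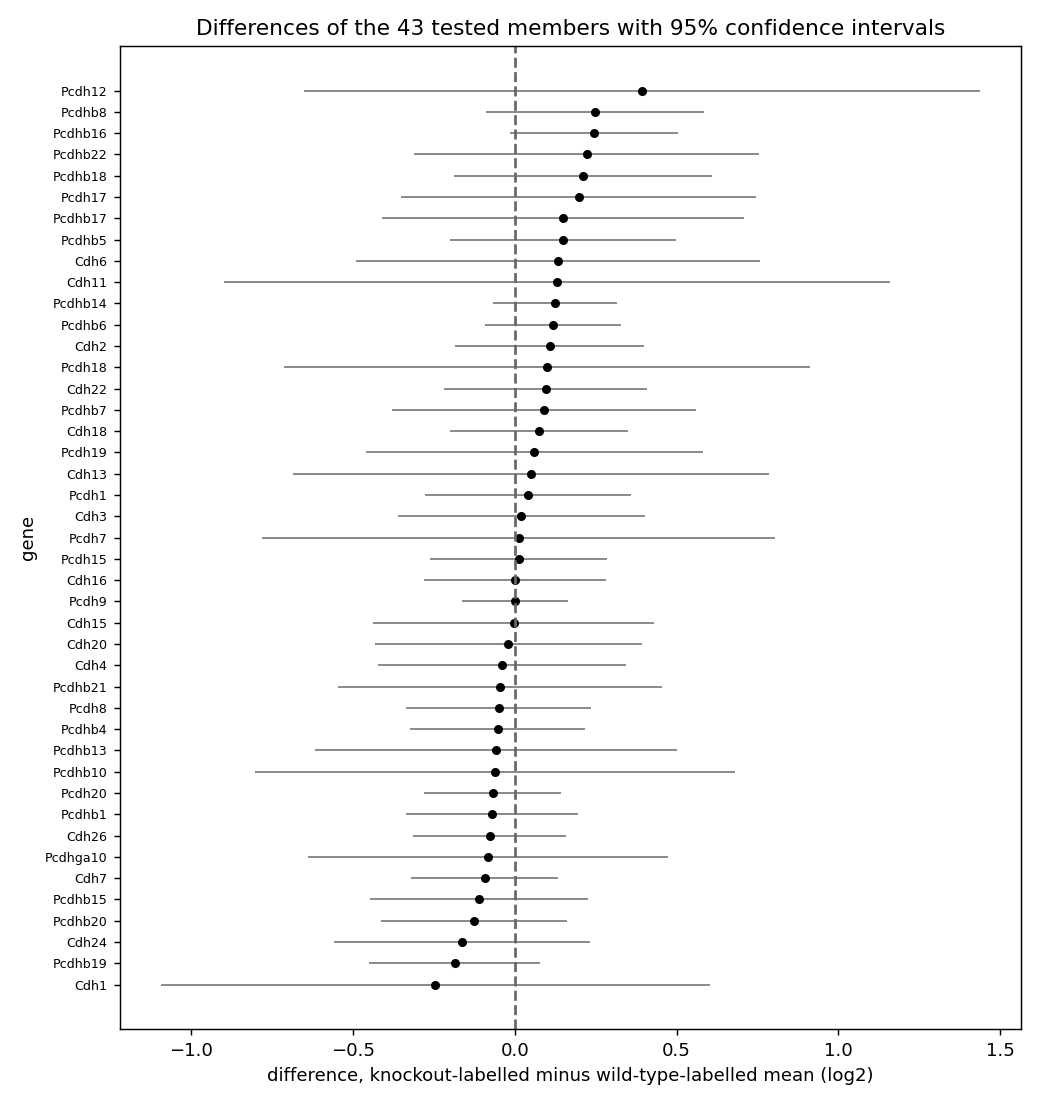
Difference in mean log2 signal between arrays labelled knockout and wild-type for each of the 43 tested members, with bars for 95% confidence intervals from limma. All intervals include 0, and those of Pcdh12, Cdh11, Cdh1, Pcdh18 and Pcdh7 are the widest.

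Pcdh12, also called VE-cadherin-2, is a protocadherin known from endothelium. It measured 7.36, 7.41 and 8.66 on wild-type 1, 2 and 3, and 8.63, 8.82, 7.39 and 7.97 on knockout 1, 2, 3 and 4. The values fell into low ones on wild-type 1, wild-type 2 and knockout 3 and higher ones on the other 4 arrays, across the labels. Its difference was 0.39 (SE 0.44, 95% confidence interval -0.65 to 1.44, adjusted p = 0.971 in limma), and leaving out single arrays gave 0.17 (without wild-type 1) to 0.82 (without wild-type 3).

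Pcdh17, a delta-2 protocadherin that recruits the WAVE actin regulator complex, was low on the same 3 arrays. It measured 9.26, 9.36 and 10 on wild-type 1, 2 and 3, and 9.91, 10.07, 9.39 and 9.58 on knockout 1, 2, 3 and 4. Wild-type 1, wild-type 2 and knockout 3 again held the 3 lowest values. The difference was 0.20 (95% confidence interval -0.35 to 0.74, adjusted p = 0.971 in limma), and it ran from 0.06 without wild-type 1 to 0.43 without wild-type 3.

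Pcdh1, a delta-1 protocadherin of airway epithelium and other tissues, was among the steadier members. It measured 8.16, 7.97 and 8.09 on wild-type 1, 2 and 3, and 7.83, 8.37, 8.13 and 8.13 on knockout 1, 2, 3 and 4. The groups overlapped throughout, with a difference of 0.04 (95% confidence interval -0.28 to 0.36) whose sign turned without wild-type 2 or knockout 2.

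Pcdh18, a delta-2 protocadherin, measured 7.82, 7.41 and 6.53 on wild-type 1, 2 and 3, and 7.39, 7.04, 7.94 and 7.04 on knockout 1, 2, 3 and 4. Here wild-type 1 and knockout 3 were highest and wild-type 3 lowest. The difference of 0.10 (95% confidence interval -0.71 to 0.91) became -0.26 without wild-type 3 and -0.10 without knockout 3.

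The 3 other non-clustered protocadherins above background had lower signals. Pcdh19, an X-linked delta-2 protocadherin, ranged from 4.04 to 4.85 with a difference of 0.06 (95% confidence interval -0.46 to 0.58), and its sign turned without wild-type 2, knockout 2 or knockout 3. Pcdh20 ranged from 4.31 to 4.58 with a difference of -0.07 (95% confidence interval -0.28 to 0.14). Pcdh7, of the delta-1 group, ranged from 3.61 to 4.81 with a difference of 0.01 (95% confidence interval -0.78 to 0.80), lay above background on 5 arrays, and turned sign in 3 of 7 fits that left out an array and with array weights. None of the 10 non-clustered protocadherins tested had groups that did not overlap.

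**Figure D3:**
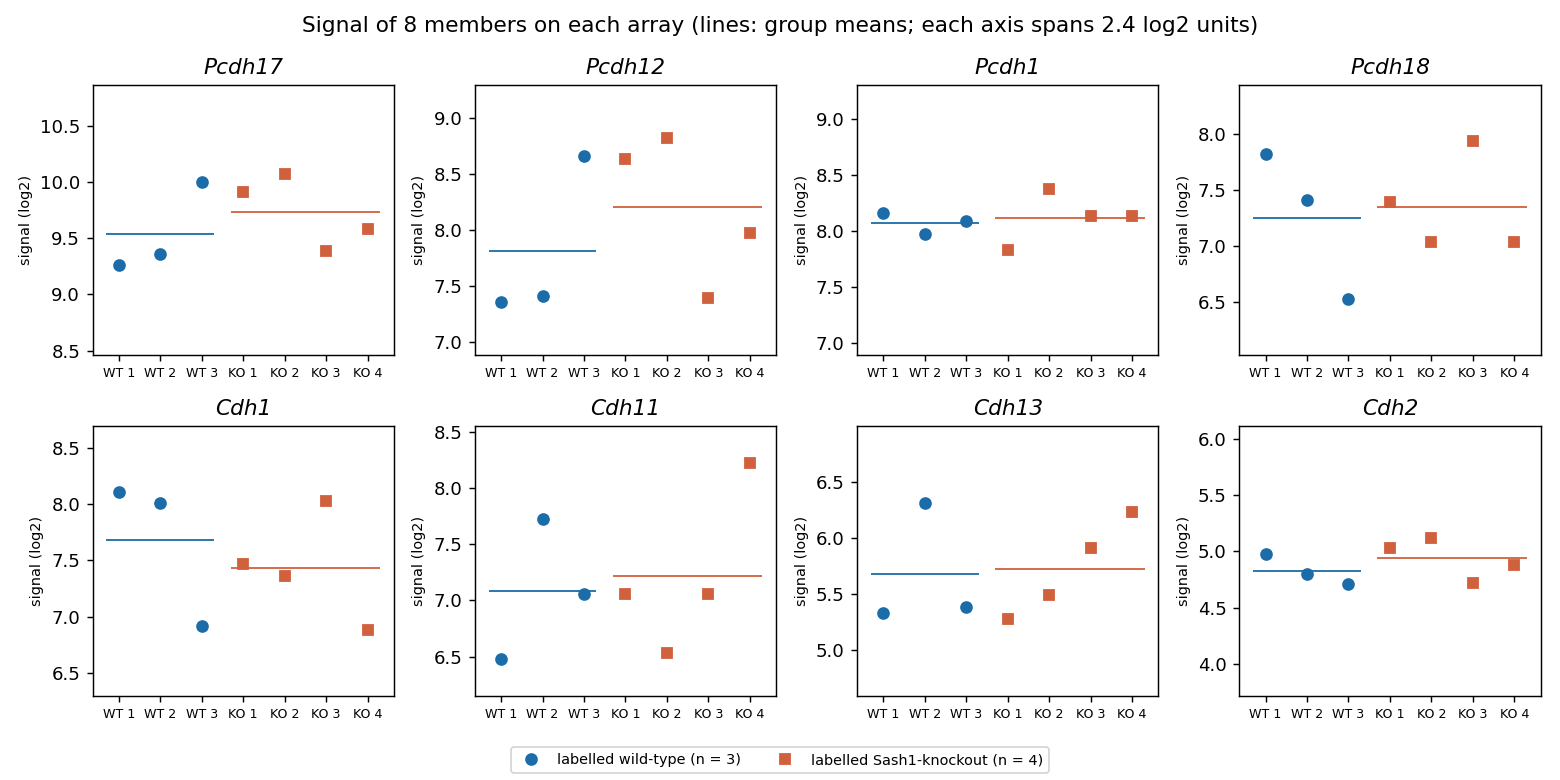
Log2 signal of Pcdh17, Pcdh12, Pcdh1, Pcdh18, Cdh1, Cdh11, Cdh13 and Cdh2 on each array, with lines at the group means and axes of equal span. Wild-type 1, wild-type 2 and knockout 3 hold the 3 lowest values of Pcdh12 and Pcdh17 and the 3 highest values of Cdh1.

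Cdh1 encodes E-cadherin, the adhesion protein of epithelial junctions. It measured 8.11, 8.01 and 6.92 on wild-type 1, 2 and 3, and 7.47, 7.36, 8.03 and 6.88 on knockout 1, 2, 3 and 4. The highest values were on wild-type 1, knockout 3 and wild-type 2, and the lowest on wild-type 3 and knockout 4. Its difference was -0.24 (SE 0.36, 95% confidence interval -1.09 to 0.60, adjusted p = 0.972 in limma), and it ran from -0.63 without wild-type 3 to -0.03 without wild-type 1. A second probe set of Cdh1 gave 7.69, 7.60 and 6.60 against 7.17, 7.05, 7.37 and 6.82, and a difference of -0.19.

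The sort was set to leave out epithelial cells, but all 15 lung epithelium markers lay above background, with Epcam at 4.06 to 5.31 and Sftpc, the surfactant protein C gene, at 10.20 to 12. The mean of these 15 markers was 8.03, 7.66 and 6.89 on wild-type 1, 2 and 3, and 7.75, 7.14, 7.86 and 6.29 on knockout 1, 2, 3 and 4. Cdh1 and this mean were both highest on wild-type 1 and both lowest on knockout 4. The list was not uniform, however. Nkx2-1, Krt8, Krt18, Krt19, Cldn18 and Ager were lowest on wild-type 3, and the other markers on knockout 4. Cdh1 was nearly equal on these arrays, at 6.92 on wild-type 3 and 6.88 on knockout 4. In sorted cell pools more cells of a type and more RNA per cell cannot be told apart, and the part of epithelial RNA in the Cdh1 signal was not tested.

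**Figure D4:**
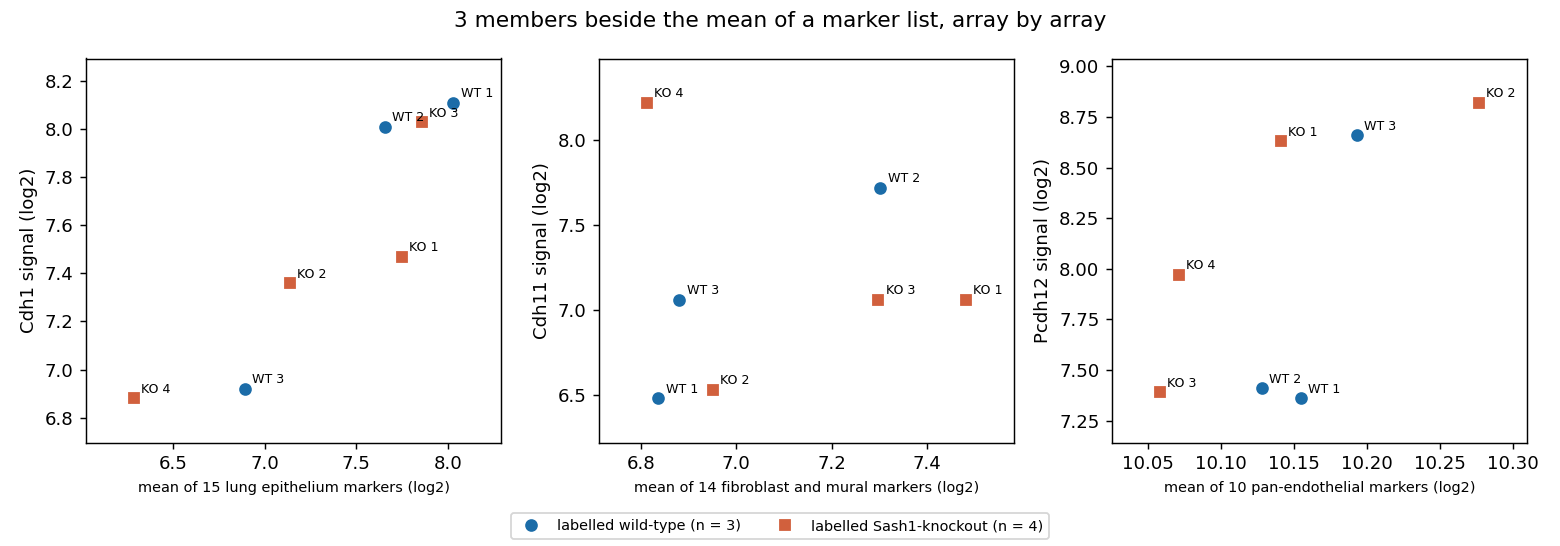
Log2 signal of Cdh1, Cdh11 and Pcdh12 on the 7 arrays against the mean of a marker list on the same array, with circles for arrays labelled wild-type and squares for arrays labelled Sash1-knockout. Cdh1 and the lung epithelium mean share their highest array (wild-type 1) and their lowest (knockout 4), though some markers of that list are lowest on wild-type 3. Cdh11 is highest on knockout 4, where the fibroblast and mural mean is lowest, though Tcf21 of that list is highest there. Pcdh12 spans 7.36 to 8.82 over pan-endothelial means of 10.06 to 10.28.

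Cdh11 encodes a type II cadherin of mesenchymal cells. It measured 6.48, 7.72 and 7.06 on wild-type 1, 2 and 3, and 7.06, 6.53, 7.06 and 8.22 on knockout 1, 2, 3 and 4. Knockout 4 was highest and wild-type 1 lowest, and the difference of 0.13 (95% confidence interval -0.90 to 1.16) became -0.17 without wild-type 1 and -0.20 without knockout 4. All 14 fibroblast and mural markers were above background, with means of 6.84 to 7.30 on the arrays labelled wild-type and 6.81 to 7.48 on those labelled knockout. On knockout 4, where Cdh11 was highest, this mean was at its lowest (6.81). This list was not uniform either. Tcf21 was highest on knockout 4 (8.99), and Postn (8.71) was higher only on wild-type 2 (9.03). Acta2, Tagln, Myh11, Rgs5, Pdgfrb, Col1a1, Col1a2 and Col3a1 were lowest on knockout 4, and the other markers lay between. The part of such cells in the Cdh11 signal was not tested.

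Cdh13 encodes T-cadherin, which is held to the membrane by a lipid anchor, has no catenin tail and binds adiponectin. It measured 5.33, 6.31 and 5.39 on wild-type 1, 2 and 3, and 5.28, 5.49, 5.91 and 6.23 on knockout 1, 2, 3 and 4. Wild-type 2 and knockout 4 were highest, as for Cdh11. The difference of 0.05 (95% confidence interval -0.68 to 0.79) turned sign in 4 of 7 fits that left out an array, between -0.12 and 0.37.

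The classical type I genes other than Cdh1 had low signals and small differences. Cdh2, or N-cadherin, which endothelial cells use in contacts with pericytes, measured 4.98, 4.80 and 4.71 on wild-type 1, 2 and 3, and 5.03, 5.12, 4.72 and 4.88 on knockout 1, 2, 3 and 4. The groups overlapped, with a difference of 0.11 (95% confidence interval -0.18 to 0.40), and a second, dimmer probe set gave 0.38 with 1 high value of 4.95 on knockout 2. Cdh4, or R-cadherin, differed by -0.04 (-0.42 to 0.34), and its second probe set by -0.28. The sign of the Cdh4 difference turned with either scaling, with the replicate number as a fixed block and without wild-type 2 or knockout 4. Cdh3, or P-cadherin, differed by 0.02 (-0.36 to 0.40). Cdh15, the muscle cadherin, differed by 0.00 (-0.44 to 0.43), ranged from 3.59 to 4.35 and lay above background on 6 arrays.

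Cdh24, a type II cadherin, measured 5.38, 5.29 and 5.29 on wild-type 1, 2 and 3, and 5.35, 5.10, 5.43 and 4.75 on knockout 1, 2, 3 and 4. Knockout 4 was lowest, and the difference of -0.16 (95% confidence interval -0.56 to 0.23) was -0.03 without it. Cdh16, known from kidney tubules, ranged from 4.75 to 5.17 and differed by 0.00 (-0.28 to 0.28). Cdh7, below background, was among the 4 members of smallest unadjusted p with a negative difference, at -0.09 (-0.32 to 0.14). Over the 15 cadherins tested, 8 had positive and 7 negative differences, with a median of 0.00 and no pair of groups without overlap.

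The beta protocadherins are single-exon genes of the chromosome 18 cluster with closely related sequences, so a probe set may also read neighbouring members. Of the 22, 17 were tested, with 9 positive and 8 negative differences and a median of 0.09. Pcdhb16 had the smallest unadjusted p of the 43 tested members (0.0603, adjusted p = 0.971 in limma). It measured 3.93, 3.92 and 3.73 on wild-type 1, 2 and 3, and 4.00, 4.11, 4.31 and 4.00 on knockout 1, 2, 3 and 4. All 4 knockout-labelled values were above all 3 wild-type-labelled ones, by 0.07 at the nearest, around the background level. The difference was 0.245 (95% confidence interval -0.01 to 0.50). With quantile normalization or median centring the groups of Pcdhb16 overlapped, and those of Pcdhb14 and Pcdhb6 did not. The share of all genes without overlap was not counted after these scalings, so this cannot be read as a result about the members.

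Pcdhb8 measured 4.11, 4.02 and 4.38 on wild-type 1, 2 and 3, and 4.60, 4.46, 4.48 and 4.13 on knockout 1, 2, 3 and 4, so knockout 4 lay within the wild-type-labelled range. Its difference was 0.25 (95% confidence interval -0.09 to 0.58). Pcdhb14 (0.12, -0.07 to 0.32) and Pcdhb6 (0.12, -0.09 to 0.33) completed the 4 members of smallest unadjusted p with positive differences. On the other side Pcdhb19 differed by -0.18 (-0.45 to 0.08) and Pcdhb20 by -0.12 (-0.41 to 0.16), and Pcdhb20 read 5.01 on all 3 arrays labelled wild-type and on knockout 3.

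Pcdhb17 had the highest signal of the beta genes, with 5.60, 5.75 and 6.19 on wild-type 1, 2 and 3, and 5.47, 6.36, 6.19 and 5.96 on knockout 1, 2, 3 and 4. Its groups overlapped (difference 0.15, 95% confidence interval -0.41 to 0.71). Pcdhb4 ranged from 4.85 to 5.21 and differed by -0.05 (-0.32 to 0.22), a sign that turned with median centring, with array weights, without wild-type 3 and without both arrays numbered 3. The median over all 22 beta genes was 4.03, 3.955 and 3.945 on wild-type 1, 2 and 3, and 4.16, 4.33, 4.305 and 4.10 on knockout 1, 2, 3 and 4, while their means overlapped (3.82 to 3.86 against 3.80 to 4.06). These medians lie around the background level of 3.99, and 9 of the 17 genes tested had positive and 8 negative differences. A shift of the cluster was not tested.

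**Figure D5:**
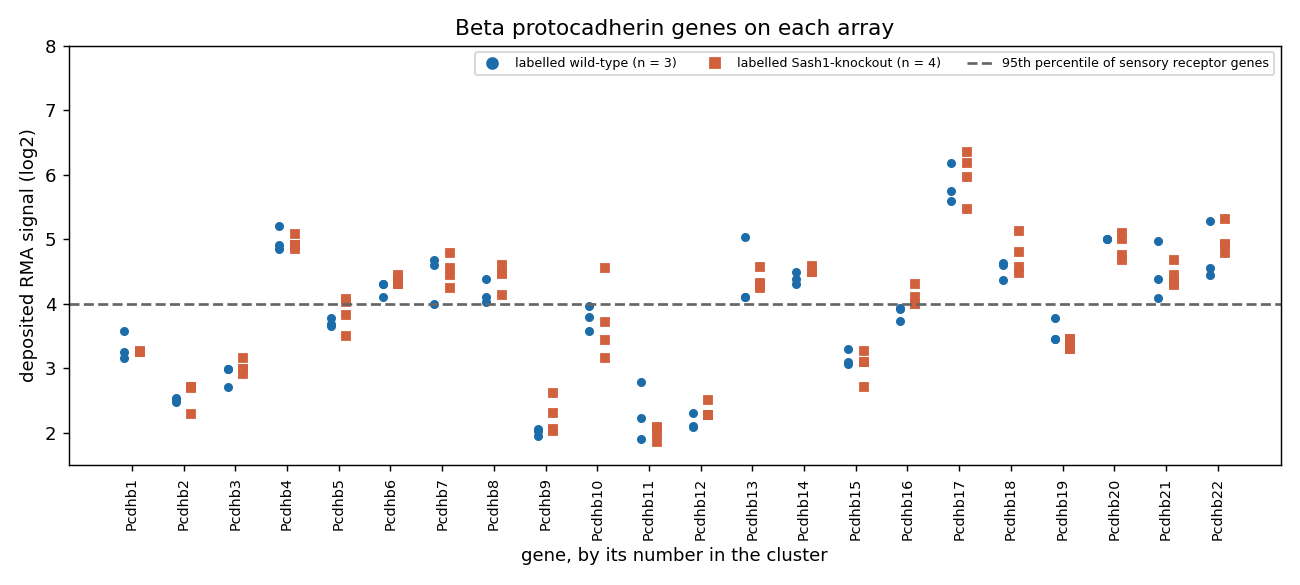
Log2 signal of the 22 beta protocadherin genes on each array, by gene number, with circles for arrays labelled wild-type, squares for arrays labelled Sash1-knockout and the background level of 3.99 as a dashed line. For 12 genes the mean is above the line, and Pcdhb16 is the tested gene whose groups do not overlap.

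Pcdhga10, of the gamma cluster, measured 6.40, 6.69 and 7.04 on wild-type 1, 2 and 3, and 6.95, 6.95, 6.23 and 6.38 on knockout 1, 2, 3 and 4. Wild-type 3 was highest and knockout 3 lowest, and the groups overlapped. The difference was -0.08 (95% confidence interval -0.64 to 0.48), a sign that turned without wild-type 3 (0.08), knockout 3 (0.05) or both arrays numbered 3 (0.21), and the difference was 0.00 without knockout 4.

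The array labelled wild-type 3 and the array labelled knockout 3, whose Sash1 values lay near those of the other label, also bore on the members. Both were singled out by values of these data, and without them 2 wild-type-labelled and 3 knockout-labelled arrays were left. In that fit 3 members had an unadjusted p under 0.05 in limma. These were Cdh1 (-0.82, adjusted p = 0.315 in limma), Pcdh12 (1.09, 0.32) and Pcdh17 (0.54, 0.379), while Pcdh18 differed by -0.46. The 3 members are 6.98% of 43, beside 10.7% of all genes in the same fit, and groups did not overlap for 16.3% of members and 24% of all genes. On the first principal component of the other tested genes, which carried 36.5% of the variance, wild-type 1, wild-type 2 and knockout 3 lay at 29.6, 18.1 and 20.9, and the other arrays between -23.1 and -10.1. These are the same 3 arrays that held the lowest Pcdh12 and Pcdh17 values and the highest Cdh1 values. Once wild-type 3 and knockout 3 are left out, the labels coincide with the sides of this component. The differences of these members in that fit therefore cannot be told apart from it.

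Partners and regulators of the members were examined through lists, and no gene of any list was called by limma. Of 15 catenin and armadillo genes tested, 5 had positive and 9 negative differences, with a median of -0.01, among them Ctnna1, which links cadherins to actin (0.11), and Pkp1, a desmosomal plakophilin (-0.29). Of 18 other cadherin superfamily genes 7 were positive and 11 negative, with a median of -0.03, among them Cdhr1 (-0.32) and Cdhr5 (-0.23, 95% confidence interval -0.45 to -0.01). Pkp1, Cdhr1 and Cdhr5 had means below the background level, at 3.65, 3.68 and 3.08. Genes of cadherin cleavage and turnover had a median of -0.01 over 13 genes, with the endocytic adaptor Numb at 0.16 and the presenilin gene Psen2 at -0.19.

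Regulators that repress or switch cadherin genes had a median of 0.03 over 12 genes. Snai2, which encodes the E-cadherin repressor Slug, measured 7.36, 7.29 and 7.31 on wild-type 1, 2 and 3, and 7.71, 7.63, 7.49 and 7.49 on knockout 1, 2, 3 and 4. Its groups did not overlap, but the difference of 0.26 (95% confidence interval 0.05 to 0.47) did not pass (adjusted p = 0.971 in limma). Tcf3, an E-box factor, differed by 0.26 (0.01 to 0.51). Chromatin regulators of the clustered protocadherins had 10 positive and 4 negative differences with a median of 0.12, among them the cohesin gene Rad21 (0.17) and the DNA methyltransferase gene Dnmt3a (0.23).

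Signalling partners of the clustered protocadherins had 4 positive and 10 negative differences with a median of -0.08. Wasf1, a WAVE complex subunit, measured 3.78, 3.57 and 4.54 on wild-type 1, 2 and 3, and 4.54, 4.98, 4.54 and 4.97 on knockout 1, 2, 3 and 4. Wild-type 3 equalled the lowest knockout-labelled values, and the difference of 0.79 (95% confidence interval 0.21 to 1.38) did not pass (adjusted p = 0.971 in limma). Wasf1 lay above background on 5 arrays, and its values on wild-type 1 and wild-type 2 were below the background level. The kinase gene Fyn differed by -0.28 (-0.52 to -0.03). Over the 6 lists, 5 of 86 genes tested had an unadjusted p under 0.05 and 1 had groups without overlap, beside 3.34% and 2.45% of all genes.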

How the data were processed

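The authors deposited 1 log2 signal per probe set and array, made with RMA in Affymetrix Expression Console 1.1 per the submitters' processing notes. That the scale is log2 was read from the values. RMA had already normalized the arrays, and the genome build behind it is not given in the sources used here. The number of arrays limits precision.

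Of 41345 probe sets, 23521 had 1 gene symbol in the platform annotation (22180 genes), 1814 had several and 16010 had none. Symbols were updated by gene identifier through the RefSeq table of GRCm38.p6, which held 99.2% of identifiers, and members kept the symbol of the platform annotation. A gene took the probe set with the highest mean of 7 arrays, and a filter dropped the 25% of genes with the lowest means (below 2.98). The 16637 genes left were fitted with limma 3.58.1 in R 4.3.3 (lmFit and eBayes), with genotype as the only term, two-sided, Benjamini-Hochberg adjusted over all of them. The script was tested on simulated data.

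Named in the text are non-clustered members above background, the 3 brightest of each cluster, tested members without overlap, the 4 of smallest p in each direction, 7 fixed members, and in each partner list the 2 genes of smallest p and any without overlap. Sash1, Cdh5, Pecam1, Epcam and Ptprc served as checks. Members and lists were chosen with earlier results of these data known. Alternatives were other filters, scalings, moderation, array weights, probe set rules, a replicate block, a threshold of 0.1 and arrays left out.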

Additional observations from a re-analysis of the deposited data

Results flagged for a closer look

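An array far from the other 3 labelled knockout was looked for with Dixon's test in 43 named genes. By chance about 1 group in 20 would stand out, and 3 did. Pcdh20 measured 4.31 on knockout 2, against 4.52 to 4.55 on the others. Epcam measured 4.06 on knockout 4, against 5.14 to 5.19, and Ptprc, the CD45 gene, 3.51 on knockout 4, against 4.57 to 4.72.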

How the results depend on the processing

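No gene and no member was called under any alternative run. With array weights 1 of 43 members had an unadjusted p under 0.05 in limma (Pcdhb8), beside 1310 of 16637 genes. Without wild-type 2 it was 1 of 44 (Pcdhb22), beside 293 of 16640 genes. Without knockout 1 it was 1 of 44 (Pcdhb5), beside 463 of 16638 genes. Without knockout 4 it was 1 of 43 (Pcdhb8), beside 390 of 16637 genes. The median difference of the tested members was -0.01 to 0.03 with single arrays left out, 0.069 after quantile normalization or median centring and 0.056 with the dimmest 50% of genes left out. The number of members above background was 28 to 29 with single arrays left out, 26 by the lowest array and 29 with probe sets averaged, and 9 with the 99th percentile as the level. Of 278 values of 26 named members under alternatives other than leaving out 1 array, 23 changed sign, all from differences under 0.14 in size. Cdh4 and Cdh15 were at 0.00 and 0.06 after quantile normalization, and Cdh4, Cdh15 and Pcdhb4 at 0.02, 0.05 and 0.01 after median centring. Array weights gave -0.03 for Cdh11, -0.19 for Cdh13, -0.22 for Pcdh7, 0.03 for Cdh15 and 0.00 for Pcdhb4. Without both arrays numbered 3, Pcdh18 was at -0.46, Cdh13 at -0.15, Pcdh19 at 0.00, Cdh3 at -0.05, Pcdhb4 at 0.07 and Pcdhga10 at 0.21. With the replicate number as a fixed replicate block, Cdh11 was at -0.20, Cdh13 at -0.12, Cdh16 at -0.04, Cdh4 at 0.08, Pcdh7 at -0.20 and Pcdhga10 at 0.00, and with a random replicate block Cdh15 at 0.02. No label says that the replicate numbers pair animals or litters. Deviations from the group means correlated at -0.18, -0.20 and -0.55 for arrays with the same number, and 0 genes were called under either block. These values cannot decide whether arrays were paired. The group means rest on few arrays, and 0 genes were called without a block too. The cause of these changes was not tested.

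With single arrays left out, 31 of 182 values changed sign. The ranges were -0.04 to 0.14 for Pcdh1, -0.26 to 0.38 for Pcdh18, -0.20 to 0.45 for Cdh11, -0.12 to 0.37 for Cdh13, -0.06 to 0.08 for Cdh16, -0.13 to 0.08 for Cdh4, -0.06 to 0.25 for Pcdh19, -0.11 to 0.09 for Cdh3, -0.27 to 0.32 for Pcdh7, -0.09 to 0.16 for Cdh15, -0.12 to 0.06 for Pcdhb4 and -0.24 to 0.08 for Pcdhga10.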

Other observations

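Probe sets annotated to several genes were outside the comparison. A probe set shared by 9 alpha protocadherin symbols measured 3.93, 3.93 and 3.85 on wild-type 1, 2 and 3, and 3.75, 3.89, 3.93 and 3.93 on knockout 1, 2, 3 and 4, below the background level. One shared by 9 gamma symbols measured 5.71, 5.88 and 6.48 against 6.20, 5.88, 5.54 and 5.68, and its highest array (wild-type 3) and lowest array (knockout 3) were those of Pcdhga10. A probe set that carries a gamma symbol beside that of an unnamed gene model measured 10.11 to 10.68. In each of these the groups overlapped.

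Several dim members held 1 identical value on many arrays. Pcdh9 measured 3.38 on all 7 arrays, Cdh23 2.74 on 5 of them, and 9 of 57 members (15.8%) had the same value on at least 4 arrays, beside 17.4% of all genes. Of these 9 members, 7 lay below background.

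Markers of other cell types, averaged per array, ran as follows on the arrays labelled wild-type and knockout. Leukocyte markers lay at 5.21 to 5.79 and 4.43 to 5.61, mesothelial ones at 4.75 to 5.57 and 4.82 to 5.33, and Schwann cell and neuron markers at 4.22 to 4.49 and 4.23 to 4.53. Cardiac muscle markers lay at 5.41 to 6.08 and 5.22 to 5.41, lymphatic ones at 6.79 to 7.71 and 7.07 to 7.63, and 2 erythroid markers at 3.79 to 4.14 and 3.82 to 4.17. The lowest leukocyte mean was on knockout 4, where Lyz1 measured 4.02, against 8.93 to 11.09 on the other arrays. Ptprc, Cd68, Lyz2, Coro1a and Laptm5 were also lowest there, by less, and the other leukocyte markers were not.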
